A study of Gallus gallus with 6 samples.

Results

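Chemokines, interleukins and their receptors were taken as the genes whose symbol in the deposited annotation begins as a numbered chemokine or chemokine receptor (CCL, CXCL, XCL, CX3CL, CCR, CXCR or XCR) or as a numbered interleukin (IL). This rule, which uses no measured value, found 82 of the 24356 annotated genes. They comprised 17 chemokines, 13 chemokine receptors, 21 interleukins, 28 interleukin receptors or receptor-like chains and 3 other genes (IL4I1, IL1RAPL1 and IL1RAPL2). IL8 and IL8L1 were placed with the chemokines, because interleukin 8 is a CXC chemokine despite its name.

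RNA was sequenced from the jejunum, the middle section of the small intestine, of 6 Korat chickens, a slow-growing line. Feed conversion ratio (FCR) is feed intake divided by body weight gain, so a low FCR is an efficient bird. The low-FCR group (L1, L2 and L3) and the high-FCR group (H1, H2 and H3) held 3 birds each, chosen from the extremes of FCR among caged males fed the same diets without limit and sampled after a fast at 10 weeks of age. No drug, allele or other treatment was applied, and each bird gave 1 poly(A) library from the entire jejunal section, so p-values measure the spread between birds. The title of H3 holds the word for the low-FCR group beside the code H3. It was analysed as high-FCR, and the log2 FC of 26 of the 67 tested members turned sign when it was counted as low-FCR.

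Total counts per library ranged from 10436038 to 11370043, and from 73 to 77 of the 82 members were detected in a bird. Markers of absorptive enterocytes were present in all libraries, with 11 of the 15 listed genes tested. L1 stood apart. Although the study states that the birds were male, and the female-specific W chromosome is absent from male chickens, L1 had 16140 counts on W genes, against 48 to 80 in the other birds. The median of 652 Z-linked genes in L1 was -0.51 on the log2 scale against the other birds, whose medians lay between 0.05 and 0.16. L1 also had the highest summed level of the 4 ileal enterocyte markers found in the file, at 4827 normalised FPKM against 386 to 1615 in the others, and SLC10A2, 1 of these genes, had no count in L2.

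Chemokines are small secreted proteins that set up gradients along which leukocytes migrate, and they act through G-protein-coupled receptors on the migrating cell. CCL19 and CCL21 guide T cells and dendritic cells that carry CCR7, CXCL13 guides B cells that carry CXCR5 into follicles, and CCL20 attracts CCR6-bearing cells to intestinal epithelium. Interleukins signal mostly through paired receptor chains to JAK and STAT proteins or, for the interleukin 1 and 17 families, to NF-kB. In the gut of mammals, IL15 and IL7 maintain lymphocytes within the epithelium, while IL22 acts on the epithelium itself. These genes are transcribed mainly by immune, stromal or epithelial cells, whose shares of each sample were not measured. In whole tissue, fewer cells of a type and less RNA per cell cannot be told apart.

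Levels are given as normalised FPKM, the count per exonic kilobase and per TMM-adjusted library size, so that genes can be set against each other. Of the 82 members, 67 passed the filter of a mean FPKM of at least 0.5 and were tested, and 2 of these had a mean level under 1. The other 15 included IL2, IL3, IL4, IL5, IL13 and IL17A, interleukins of helper T cells, and IL9 and IL1RAPL1 had no count in any bird. At the top, CCL21 had a mean level of 206 normalised FPKM, followed by IL15 at 125, CCL19 at 110.2, IL2RG at 101, IL7R at 73.3 and CCL5 at 68.2. The ranges of these genes across birds overlapped with those of their neighbours in that order. The first interleukin after IL15 was IL16, at 27.2, and 28 members had a mean of at least 10.

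No member differed between the groups after adjustment over all 14282 genes tested. By edgeR's quasi-likelihood test with Benjamini-Hochberg adjustment, the smallest adjusted p among the members was 0.997, and 0 of 14282 genes passed (0%). At an unadjusted p under 0.05 there were 9 members, 13.4% of the 67, against 3.24% of all genes tested. IL8L1, CXCL14, CXCL13L2, CXCR4, IL7 and IL22 had the higher level in the low-FCR group (289 genes or 2.02% of all genes in this direction). CCL4 (ENSGALG00000032717), CCR4 and CCR8L had the lower level (174 genes or 1.22%). CCR8L passed the filter only through its level in the high-FCR birds. DESeq2 gave 14 members at an unadjusted p under 0.05, with 4.09% of all genes. After adjustment DESeq2 kept 0 members, with a smallest adjusted p of 0.411, and 0.056% of all genes. In place of 9, the count was 2 without H3 (2.15% of all genes in the same fit), 3 without L3 (3.32%), 4 without H1 (2.93%), 5 without L1 (2.49%), 6 without H2 (2.05%) and 15 without L2 (9.91%).

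The groups overlapped for nearly all members. CXCL14 was higher in every low-FCR bird and CCR8L, which passed the filter only through the high-FCR birds, lower in every low-FCR bird. This made 2 of 67 members (2.99%) without overlap. Among all genes 6.36% had none, of which 2.97% were higher and 3.4% lower in the low-FCR birds. In sum, 30 members had the higher and 37 the lower level in low-FCR birds. Their median log2 FC was -0.16, where the median of all genes was 0.02 and 51.8% of genes were higher. This median turned to 0.07 when H3 was counted as low-FCR, and likewise to 0.07 without L1 and H3.

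**Figure D1:**
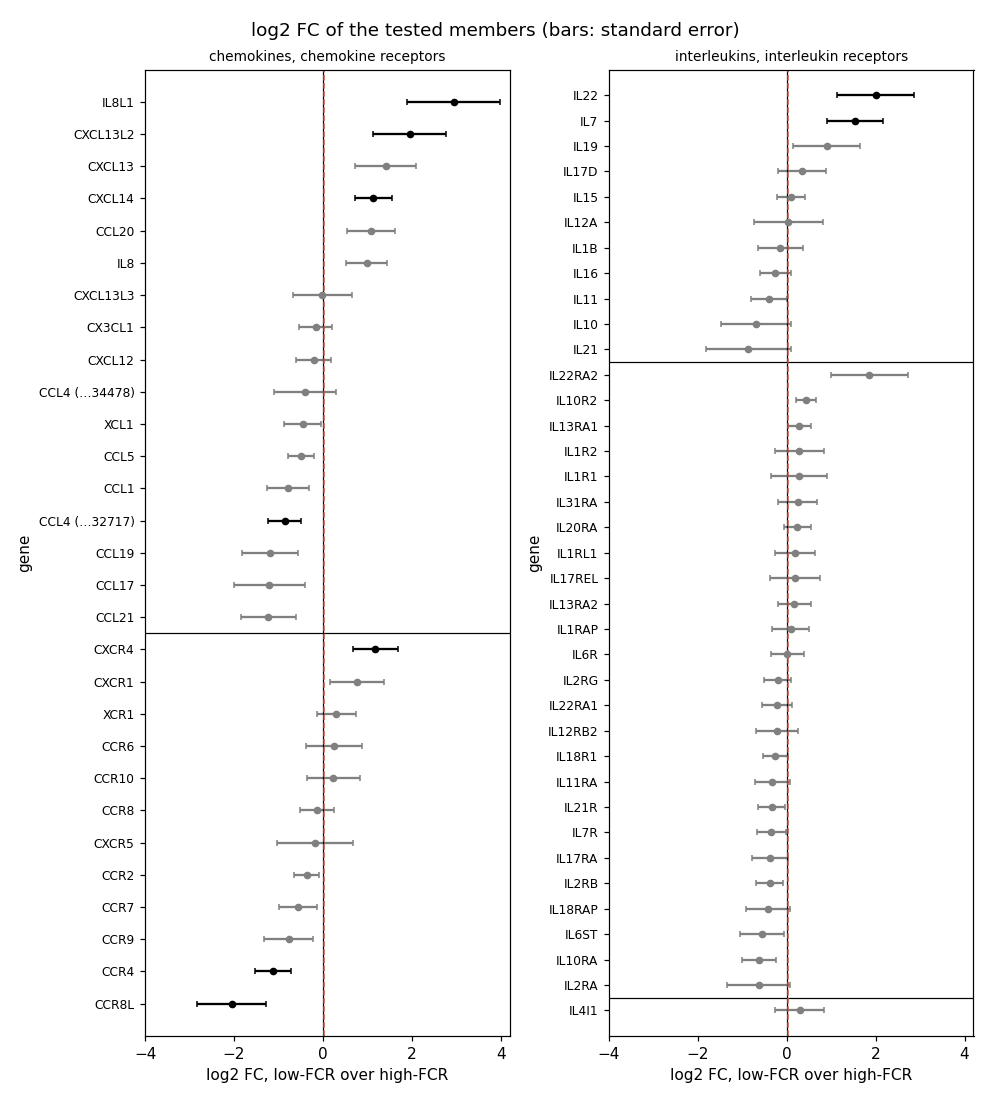
log2 FC (low-FCR over high-FCR, x axis) of tested members, with its standard error as the bar, in the role groups divided by horizontal lines. Black points have an unadjusted p under 0.05, the dashed line is the median of all genes tested (0.02), and the last 5 digits of the identifier tell the CCL4 genes apart. IL8L1 stands farthest to the right (2.94) and CCR8L farthest to the left (-2.05), and no interleukin receptor is in black.

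Single birds differed widely. The ratio of the highest to the lowest bird had a median of 3.72 over the tested members and 2.26 over all genes. H3 was the highest bird for 27 of the 67 (40.3%), where it was highest for 12.8% of all genes. L1 was the lowest bird for 24 members (35.8%), where it was lowest for 27.9% of all genes. L3 was highest for 16 (23.9%, against 22% of all genes), and H1 for 2.

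The summed level of all members was 903.5, 1376 and 1175 normalised FPKM in L1, L2 and L3, while H1, H2 and H3 reached 1236, 1173 and 2053. H3 was thus the highest and L1 the lowest, while the other 4 birds, from both groups, lay close together. CCL21 (551) and CCL19 (285) were the largest parts of the H3 sum, so it does not describe the members as a whole. The median member was 0.29 above its mean over birds in H3 and 0.34 below it in L1 (log2 scale), and from -0.09 to 0.11 in the other birds. For the chemokines alone, the sums of the low-FCR birds were 312.7, 595.5 and 386.5 (L1, L2, L3), and those of the high-FCR birds were 503.2, 475.6 and 1254 (H1, H2, H3). CCL21 and CCL19 were again the largest parts in H3. Values of both groups are given in this order of birds throughout.

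**Figure D2:**
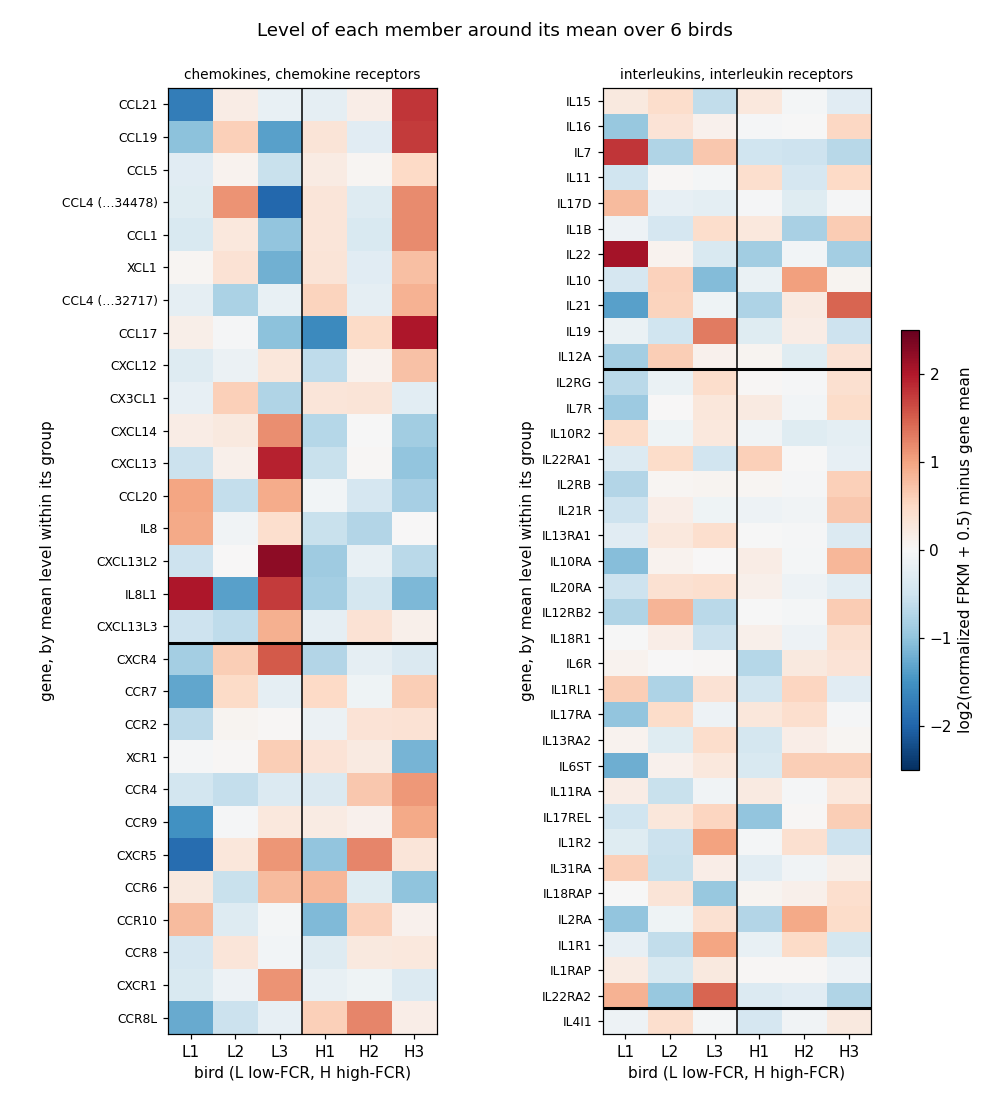
Level of tested members in each bird, as log2(normalised FPKM + 0.5) minus the mean of the gene over 6 birds, with genes as rows in role groups and birds as columns. Red cells are above and blue cells below the gene's own mean; the upper rows at left are mostly red in H3, CXCL13 and CXCL13L2 are reddest in L3, and IL22 and IL7 in L1.

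Among the CC chemokines, 7 of 8 tested genes had a lower mean level in low-FCR birds (median log2 FC -0.82), and 7 of 8 were highest in H3. Their summed level was 1168 normalised FPKM in H3, 236.5 to 511.2 in the low-FCR birds and 405.9 to 436.5 in H1 and H2. CCL21 stood at 47.7, 180 and 141 normalised FPKM in the low-FCR birds, against 137, 178 and 551 in the high-FCR birds. H3 was far above all others, L1 was lowest, and the other 4 birds interleaved. The group means were 123 ± 68.0 and 289 ± 228 (SD, n = 3 each). The log2 FC of -1.23 (SE 0.62, edgeR unadjusted p = 0.078, adjusted p = 0.997) was -0.36 when H3 was left out, and it turned to 0.55 when H3 was counted as low-FCR. The annotation describes this CCL21 gene as a C-C motif chemokine 26-like gene.

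CCL19, the other CCR7 ligand, showed 41.4, 127 and 32.7 normalised FPKM in the low-FCR birds and 105, 69.9 and 285 in the high-FCR birds. L1 and L3 were the lowest and H3 the highest, with L2 above H1. Its log2 FC was -1.19 (SE 0.64, edgeR unadjusted p = 0.095), which became -0.38 without H3, -2.08 without L2, and 0.47 when H3 was counted as low-FCR. CCL19, CCL21 and IL11RA, which encodes the interleukin 11 receptor, lie together on chromosome Z between 8328565 and 8373001 (GRCg6a), and all were highest in H3. The part that the low Z-linked levels of L1 have in these differences was not tested. Without L1 and H3, the log2 FC of CCL21 was 0.04.

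CCR7 itself, the receptor that takes T cells and dendritic cells into lymphoid tissue, had 7.46, 26.9 and 16.4 normalised FPKM in the low-FCR birds and 27.3, 17.8 and 29.7 in the high-FCR birds. Only L1 lay clearly apart, below the rest. Its log2 FC was -0.56 (SE 0.43, edgeR unadjusted p = 0.22).

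**Figure D3:**
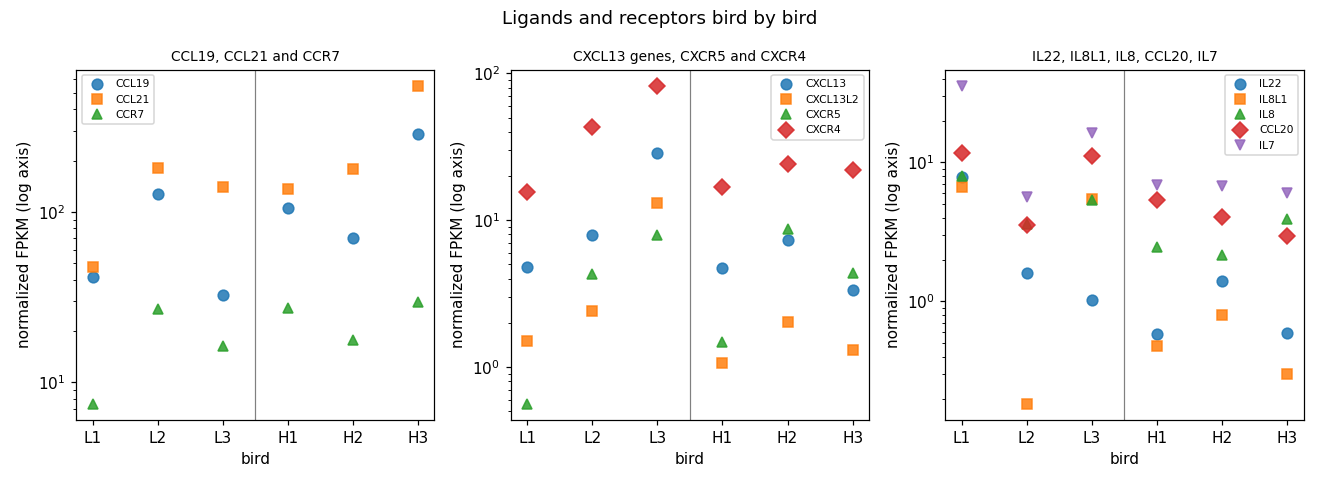
Normalised FPKM (log axis) in each bird for 3 sets of ligands and receptors, chosen after their values had been seen, with the low-FCR birds at left of the grey line. CCL19 and CCL21 peak in H3 (285 and 551), CXCL13, CXCL13L2 and CXCR4 in L3 (28.5, 13.2 and 82.5), and IL22, IL8, IL8L1, CCL20 and IL7 in L1.

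CCL4 and CCL5 are chemokines made mainly by T and NK cells and macrophages, and their genes lie within 44.2 kb on chromosome 19 (539445 to 583600). CCL4 (ENSGALG00000032717) had 19.6, 13.2 and 20.4 normalised FPKM in the low-FCR birds and 34.2, 19.6 and 42.8 in the high-FCR birds. H2 was at the level of L1 and under L3, while H1 and H3 were above all low-FCR birds. Its means were 17.7 ± 3.95 and 32.2 ± 11.7 (SD, n = 3 each), with a log2 FC of -0.86 (SE 0.37, edgeR unadjusted p = 0.047, adjusted p = 0.997), and -0.16 when H3 was counted as low-FCR. This gene model spans 539445 to 570383 and contains ENSGALG00000038146 on the opposite strand, which had 9461 counts against 1137. Whether the counting used strand was not stated, so reads of the pair cannot be told apart, and the similar sequence of the CCL4 copies makes the split between them uncertain.

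The second CCL4 gene (ENSGALG00000034478) had 24.4, 67.2 and 7.38 normalised FPKM against 37.5, 24.1 and 69.4. L2 was nearly as high as H3 and L3 was the lowest bird, so the groups overlapped over almost their whole range. The log2 FC was -0.40 (SE 0.70), and 0.10 without H3 and 0.07 without L3. CCL5 varied less, with 54.1, 71.0 and 44.9 against 76.4, 69.0 and 93.7 normalised FPKM, a log2 FC of -0.49 (SE 0.29, edgeR unadjusted p = 0.13). H2 lay between L1 and L2, and H3 was the highest bird for all of the genes of this cluster.

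CCL17 is a ligand of CCR4 on skin- and tissue-homing and type 2 helper T cells. It had 14.7, 12.9 and 6.28 normalised FPKM in the low-FCR birds and 4.04, 18.8 and 55.3 in the high-FCR birds. H1 was the lowest and H3 the highest of the 6 birds, and the log2 FC of -1.20 (SE 0.79) became -0.02 without H3 and 0.96 when H3 was counted as low-FCR. CCL1, the CCR8 ligand, had 22.9, 35.9 and 14.8 against 36.7, 22.7 and 67.7, again with only H3 outside the low-FCR range by a wide margin. Its log2 FC was -0.79 (SE 0.46), -0.28 without H3, and 0.25 when H3 was counted as low-FCR. XCL1, which attracts XCR1-bearing cross-presenting dendritic cells, ranged from 10.5 in L3 to 42.1 in H3, and its log2 FC of -0.46 (SE 0.42) turned to 0.11 when H3 was counted as low-FCR.

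CCL20 was the CC chemokine that ran the other way, highest in L1 and lowest in H3. It showed 11.6, 3.52 and 11.05 normalised FPKM in the low-FCR birds and 5.32, 4.07 and 2.95 in the high-FCR birds, a log2 FC of 1.08 (SE 0.53, edgeR unadjusted p = 0.073). L1 and L3 were above all high-FCR birds, whereas L2 lay within their range.

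Of the 7 CXC chemokines, 5 had the higher and 2 the lower mean level in low-FCR birds (median log2 FC 1.14). CXCL14, an epithelial and stromal chemokine, was the 1 chemokine without overlap of the groups. It stood at 10.5, 10.8 and 21.0 normalised FPKM in the low-FCR birds, against 5.35, 9.11 and 4.81 in the high-FCR birds. H2 came close to L1, and L3 was well above the rest. The means were 14.1 ± 5.98 and 6.42 ± 2.34 (SD, n = 3 each), and the log2 FC was 1.14 (SE 0.41, edgeR unadjusted p = 0.022, adjusted p = 0.997), or 0.73 without L3. The gene lies on chromosome 13 from 16035275 to 16042796.

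IL8L1 and IL8 are the chicken interleukin 8-like chemokines, which recruit heterophils and monocytes, and lie within 15.8 kb on chromosome 4 (50925077 to 50940883). IL8L1 had 6.65, 0.183 and 5.43 normalised FPKM in the low-FCR birds and 0.476, 0.793 and 0.301 in the high-FCR birds. The underlying counts were 96, 3 and 87 against 8, 14 and 5. L1 and L3 were high, whereas L2 was the lowest of all 6 birds, so the group means of 4.09 ± 3.44 and 0.524 ± 0.250 (SD, n = 3 each) describe no single low-FCR bird. The log2 FC was 2.94 (SE 1.04, edgeR unadjusted p = 0.020, adjusted p = 0.997), the smallest p of all members, and lay between 2.40 and 3.48 with each bird left out in turn.

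IL8, which the annotation describes as interleukin 8-like 2, had 7.93, 3.60 and 5.38 normalised FPKM against 2.46, 2.14 and 3.91. L1 and L3 were again the highest birds, and H3 was above L2. The log2 FC was 0.99 (SE 0.46, edgeR unadjusted p = 0.062). As related neighbouring genes, IL8 and IL8L1 may share reads.

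CXCL13 and the related CXCL13L2 and CXCL13L3, in B cell follicles the attractants of CXCR5-bearing cells, lie within 5.54 kb on chromosome 4 (34983796 to 34989334), and all were highest in L3. CXCL13L2 had 1.50, 2.41 and 13.2 normalised FPKM in the low-FCR birds and 1.06, 2.03 and 1.31 in the high-FCR birds. L3 alone was far above the rest, with 165 counts against 14 to 31. Its means were 5.69 ± 6.48 and 1.47 ± 0.50 (SD, n = 3 each), and the log2 FC of 1.95 (SE 0.82, edgeR unadjusted p = 0.041) became 0.42 without L3.

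CXCL13 followed the same bird, with 4.76, 7.92 and 28.5 against 4.70, 7.36 and 3.37 normalised FPKM and a log2 FC of 1.41 (SE 0.69), 0.30 without L3. CXCL13L3 had 3.59 in L3 and 0.917 to 2.32 in the other birds. All of these genes overlap ENSGALG00000052558, on the opposite strand with 85 counts in all, and as near copies their share of reads is uncertain. CXCL12, the stromal ligand of CXCR4, was not in this pattern and ranged from 7.68 in H1 to 20.5 in H3. CX3CL1, the membrane-bound ligand of CX3CR1, ranged from 5.82 in L3 to 15.6 in L2.

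**Figure D4:**
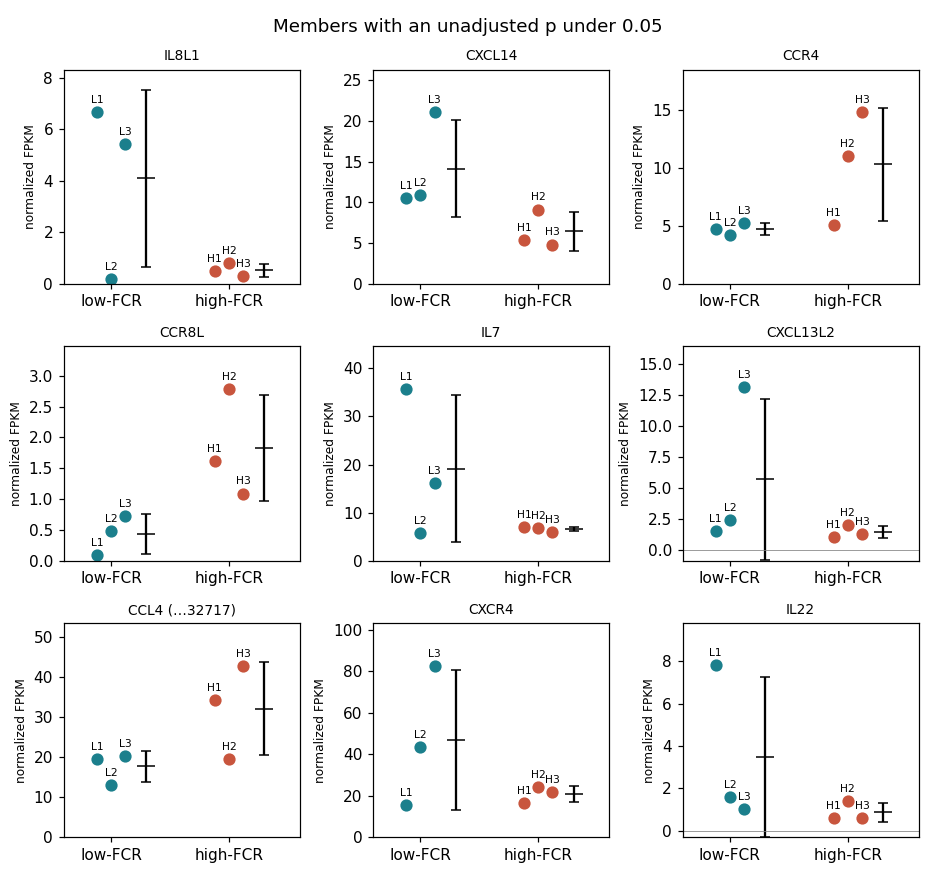
Normalised FPKM of each bird for the 9 members with an unadjusted p under 0.05 in edgeR, in order of p, with the group mean and SD (n = 3) beside the points. IL8L1, IL7, CXCL13L2, CXCR4 and IL22 have at least 1 low-FCR bird that does not exceed the high-FCR birds, and of the 9 only CXCL14 and CCR8L show no overlap.

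Of the 13 chemokine receptors, all tested, 5 had the higher and 8 the lower mean level in low-FCR birds (median log2 FC -0.17). L1 was the lowest bird for 9 of them, a median of -0.68 below the mean over birds on the log2 scale, against -0.20 to 0.26 in the other birds. Among these members, CC receptors leaned lower (7 of 9) and the CXC and XC receptors higher (3 of 4). Outside the symbol rule, a gene described as CXC chemokine receptor 3-like (ENSGALG00000004127) leaned lower, with a log2 FC of -0.84 (SE 0.63).

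CCR8L, named for its likeness to CCR8, lies on chromosome 2 from 42654209 to 42655342 in a cluster of chemokine receptor genes that includes CCR2, XCR1 and CCR9. It had 1, 6 and 9 counts in the low-FCR birds, against 21, 38 and 14 in the high-FCR birds, or 0.0895, 0.472 and 0.726 against 1.61, 2.78 and 1.09 normalised FPKM. Every low-FCR bird was below every high-FCR bird. The low-FCR mean was under the filter of 0.5, so the gene was tested only through its high-FCR level. The means were 0.429 ± 0.320 and 1.83 ± 0.866 (SD, n = 3 each). The log2 FC was -2.05 (SE 0.78, edgeR unadjusted p = 0.026, adjusted p = 0.997) and lay between -2.63 and -1.60 with each bird left out. At 1 to 38 counts per bird it had the lowest mean level of the 13 chemokine receptors.

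CCR4, the receptor of CCL17 on regulatory and type 2 helper T cells, had 4.71, 4.22 and 5.20 normalised FPKM in the low-FCR birds and 5.08, 11.02 and 14.8 in the high-FCR birds. The low-FCR birds lay close together, H1 was at their level, and H2 and H3 were above. The means were 4.71 ± 0.487 and 10.3 ± 4.88 (SD, n = 3 each), and the log2 FC of -1.13 (SE 0.41, edgeR unadjusted p = 0.023, adjusted p = 0.997) became -0.77 without H3 and -0.16 when H3 was counted as low-FCR. It lies on chromosome 2 from 44348127 to 44354228, beside CCR8, which had 2.03 to 3.67 in the low-FCR and 2.22 to 3.56 in the high-FCR birds.

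CXCR4, the CXCL12 receptor carried by most leukocytes, had 15.4, 43.4 and 82.5 normalised FPKM in the low-FCR birds and 16.7, 24.0 and 21.8 in the high-FCR birds. L2 and L3 were above and L1 below all high-FCR birds, whose values differed little. Its means were 47.1 ± 33.7 and 20.9 ± 3.76 (SD, n = 3 each), and the log2 FC of 1.18 (SE 0.51, edgeR unadjusted p = 0.047, adjusted p = 0.997) became 0.50 without L3. It lies on chromosome 7 from 30761616 to 30764299.

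CCR2, a receptor of mononuclear phagocytes and memory T cells, differed less between the groups than CCR4 and CXCR4. CCR2 had 9.81, 16.6 and 16.1 normalised FPKM against 14.2, 20.3 and 20.4, with L1 lowest, and a log2 FC of -0.37 (SE 0.28). CCR9, the receptor that directs lymphocytes to the small intestine, had 1.41, 4.82 and 6.05 against 5.77, 5.34 and 9.97. Its log2 FC of -0.78 (SE 0.56) was -0.38 without L1 and -0.44 without H3.

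XCR1 was lowest in H3, the bird in which its ligand XCL1 was highest, with 8.61, 8.93 and 13.6 normalised FPKM against 11.3, 10.3 and 3.65. Its log2 FC of 0.30 (SE 0.44) was -0.06 without H3 and -0.32 with H3 counted as low-FCR. CXCR5, the receptor that marks B cells and follicular T cells, ranged from 0.561 in L1 to 8.68 in H2, and a log2 FC of -0.17 (SE 0.85). CXCR1, the interleukin 8 receptor, had 3.78 in L3 and 1.02 to 1.33 in the other birds. CCR6 and CCR10 ranged from 1.23 to 5.72 and from 1.12 to 5.58.

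Over ligand-receptor pairs named in a list of 38, 27 could be matched by symbol, and in 6 of them ligand and receptor were highest in the same bird, always H3. These were CCL19 and CCL21 with CCR7, CCL17 with CCR4, IL21 with IL21R, IL11 with IL11RA, and IL16 with CD4. CCR7 thus enters with both of its ligands, and H3 was the highest bird for 40.3% of all tested members. Whether ligand and receptor varied together was not tested. Some pairs stayed unmatched because a gene is listed under another symbol, as IL10RB is under IL10R2. Such pairs are in neither the 27 nor the 6. In H3, CCL17 and CCR4 had 55.3 and 14.8 normalised FPKM, whereas CCL20 and its receptor CCR6 were both lowest there.

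Only 11 of the 21 interleukins passed the filter, 6 with the higher and 5 with the lower mean level in low-FCR birds (median log2 FC 0.03). IL15, which sustains intraepithelial lymphocytes and NK cells, was by far the most expressed. It had 144, 164 and 78.9 normalised FPKM in the low-FCR birds and 147, 117 and 99.2 in the high-FCR birds. L3 and H3 were the lowest of their groups and the means of 129 ± 44.5 and 121 ± 23.9 (SD, n = 3 each) were nearly equal, with a log2 FC of 0.09 (SE 0.31). The sign of that difference turned with the test: it was -0.05 in limma.

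IL7, a growth factor of lymphocytes made by epithelium and stroma, had 35.7, 5.67 and 16.2 normalised FPKM in the low-FCR birds and 6.92, 6.77 and 6.00 in the high-FCR birds. L1 and L3 were high, whereas L2 was the lowest bird of all. The counts were 155, 28 and 78 against 35, 36 and 30. The means were 19.2 ± 15.2 and 6.56 ± 0.497 (SD, n = 3 each), and the log2 FC of 1.54 (SE 0.63, edgeR unadjusted p = 0.037, adjusted p = 0.997) became 0.73 without L1. The gene is on chromosome 2, from 120316700 to 120326139.

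IL22, a lymphocyte product that acts on the epithelium, had 69, 16 and 10 counts in the low-FCR birds and 6, 15 and 6 in the high-FCR birds. As normalised FPKM these were 7.84, 1.60 and 1.02 against 0.586, 1.39 and 0.592. L1 alone was high, L2 was just above H2, and L3 was within the high-FCR range. The means were 3.49 ± 3.78 and 0.857 ± 0.465 (SD, n = 3 each), and the log2 FC of 2.00 (SE 0.87, edgeR unadjusted p = 0.047, adjusted p = 0.997) became 0.60 without L1. IL22 is on chromosome 1, from 35221629 to 35224087.

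IL17A, the signature interleukin of type 17 helper T cells, was under the filter. It had 18, 0 and 4 counts in the low-FCR birds, against 1, 1 and 0 in the high-FCR birds. The ratio of summed counts per library size was 11.2 (95% Clopper-Pearson interval 2.76 to 98.4), but 18 of the 22 low-FCR counts came from L1, the bird in which IL22 was also highest. This interval covers counting error only, and between birds edgeR without a filter gave an unadjusted p of 0.042.

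IL16, a ligand of CD4 stored in lymphocytes, had 13.3, 33.0 and 28.1 normalised FPKM against 25.5, 25.8 and 37.7. L1 was lowest and H3 highest, and the log2 FC of -0.26 (SE 0.35) was 0.03 without L1. IL17D, an interleukin of non-lymphoid tissue, had 10.1, 4.83 and 4.69 against 5.46, 4.49 and 5.52, with only L1 apart from the rest. Its log2 FC of 0.34 (SE 0.53) was -0.12 without L1. IL11 had 4.43, 6.56 and 6.26 against 8.83, 4.70 and 9.36, a log2 FC of -0.41 (SE 0.41). In L3 a gene on the opposite strand of IL11, ENSGALG00000052980, had 181 of its 206 counts.

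The remaining tested interleukins were low and variable. IL21, a product of follicular helper T cells, had 1, 11 and 6 counts in the low-FCR birds and 3, 9 and 23 in the high-FCR birds, and its log2 FC of -0.86 (SE 0.96) turned to 0.85 when H3 was counted as low-FCR. IL10, which restrains inflammation, had 6, 17 and 3 counts against 9, 26 and 11. IL1B, an inflammatory product of macrophages, ranged from 2.45 in H2 to 7.50 normalised FPKM in H3 and had a log2 FC of -0.15 (SE 0.51), or 0.41 with H3 counted as low-FCR. IL19, which the file describes as interleukin 20, had 3.15 in L3 and 0.535 to 1.18 elsewhere, and IL12A ranged from 0.227 to 1.50.

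The interleukins of type 2 helper T cells had few counts. IL3, IL5, IL13 and IL4 lie together on chromosome 13 between 17424076 and 17659512. KK34, an interleukin-like gene outside the symbol rule, lies in this stretch and had 563 counts, or 6.03 to 15.6 normalised FPKM per bird. H3 held 8 of the 13 IL3 counts, 5 of the 8 IL5 counts and 6 of the 8 IL4 counts. IL13 had 3 and 2 counts in H1 and H2 and 0 in every other bird, and a count of 0 allows up to 3 counts in a library. IL6, the acute-phase inducer, had 1 to 5 counts in every bird, 9 in each group, and IL2, the T cell growth factor, had 1 to 4.

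Of the 28 interleukin receptor genes, 25 were tested. Of these, 12 had the higher and 13 the lower mean level in low-FCR birds. Their median log2 FC was -0.21, or 0.02 without H3, and 0 had an unadjusted p under 0.05 in edgeR, where DESeq2 gave 1. H3 was the highest bird for 10 and L3 for 8, while L1 was the lowest for 10.

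By the symbol rule, 5 chains of the common gamma chain family were members (IL2RA, IL2RB, IL2RG, IL7R and IL21R). All 5 of these receptors of lymphocyte growth factors had lower means in the low-FCR group and were lowest in L1. Outside the rule, the receptor genes of IL15 (ENSGALG00000008153, log2 FC 0.12) and IL9 (ENSGALG00000006394, -0.002) were lowest in H2. That of IL4 (ENSGALG00000035447, -0.39) was lowest in L1. IL2RG, the shared chain, had 61.7, 87.6 and 132 normalised FPKM in the low-FCR birds and 100, 95.6 and 130 in the high-FCR birds. L3 equalled H3, and the log2 FC of -0.21 (SE 0.31) was 0.01 without L1. IL7R, the receptor of IL7 on naive and memory T cells, had 36.9, 70.4 and 85.7 against 82.3, 67.3 and 96.9, a log2 FC of -0.35 (SE 0.33), -0.08 without L1. IL7R was thus lowest in L1, the bird with the most IL7. IL7R is Z-linked, and the part of the low Z levels of L1 in this was not tested.

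IL2RB, which binds IL15 and IL2, had 14.3, 24.9 and 25.3 normalised FPKM against 24.7, 23.5 and 36.3, with a log2 FC of -0.39 (SE 0.29), or 0.06 with H3 counted as low-FCR. IL21R followed it, with 15.4, 25.0 and 20.8 against 20.4, 21.1 and 36.2, and its log2 FC of -0.34 (SE 0.30) likewise turned to 0.23. In both genes L1 was low, H3 high and the other 4 birds alike. IL2RA, the activation-induced chain of the IL2 receptor, had 0.619 to 2.39 and 0.835 to 3.76.

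In the interleukin 10 receptor family, IL22RA2 encodes a secreted decoy that binds IL22. It had 45, 5 and 82 counts in the low-FCR birds and 15, 17 and 8 in the high-FCR birds, or 1.94, 0.189 and 3.18 against 0.555, 0.599 and 0.299 normalised FPKM. L1 and L3 were above all high-FCR birds and L2 below them, the same arrangement as for IL8L1. The means were 1.77 ± 1.50 and 0.484 ± 0.162 (SD, n = 3 each), and the log2 FC was 1.86 (SE 0.87, edgeR unadjusted p = 0.062), 1.12 without L3. The neighbouring IL20RA had 9.60, 18.5 and 18.9 against 15.4, 12.8 and 11.5.

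IL22RA1, the signalling chain of the epithelial IL22 receptor, had 27.0, 48.1 and 24.7 normalised FPKM against 52.2, 34.1 and 29.9. L1, where IL22 was highest, was among the lowest for this receptor, and the log2 FC of -0.22 (SE 0.33) was 0.05 without H1. IL10R2, the chain shared by IL10 and IL22 receptors, had 53.5, 35.9 and 46.7 against 36.5, 31.5 and 32.8. Only L2 lay within the high-FCR range, and the log2 FC was 0.43 (SE 0.23, edgeR unadjusted p = 0.087). IL10RA, the IL10-binding chain of leukocytes, ran the other way, from 6.56 in L1 to 25.7 in H3, with a log2 FC of -0.62 (SE 0.38), or 0.04 with H3 counted as low-FCR.

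The interleukin 1 receptor family lies in part in a block on chromosome 1 (135054624 to 135244807), with 5 members. Outside the symbol rule, a gene described as interleukin 1 receptor-like 2 (ENSGALG00000030526) also lies in this block. IL1R1, the signalling receptor of interleukin 1, and IL1R2, its decoy, were both highest in L3, at 3.92 and 5.32 normalised FPKM, and in the other birds ranged from 0.970 to 2.61 and from 1.51 to 3.33. IL18R1 and IL18RAP, the chains of the interleukin 18 receptor, were highest in H3 (15.7 and 2.76) and lowest in L3 (7.85 and 0.748). IL1RL1, the interleukin 33 receptor in mammals, followed neither, with 10.1, 3.53 and 8.40 against 4.56, 9.60 and 5.18. The log2 FC of these 5 genes lay between -0.42 and 0.28.

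The signal-transducing chain IL6ST, shared by the IL6 and IL11 receptors, had 1.53 in L1 and 3.10 to 6.75 normalised FPKM in the others, and is Z-linked. IL6R was even, with 7.43, 7.03 and 7.20 in the low-FCR birds and 4.08, 8.36 and 9.07 in the high-FCR birds. IL12RB2, of the receptor that drives type 1 helper T cells, ranged from 6.45 in L1 to 20.8 in L2. IL13RA1, the receptor chain of IL13, had 16.8, 24.8 and 27.7 against 20.6, 20.2 and 16.2, a log2 FC of 0.28 (SE 0.26). IL17RA, the receptor of IL17A, was lowest in L1 at 2.77, the bird that held most IL17A counts, and 5.40 to 8.38 elsewhere.

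Of 6 Z-linked members (CCL19, CCL21, IL11RA, IL6ST, IL7R and IL31RA), 5 had lower means in low-FCR birds (median log2 FC -0.45). Off chromosome Z the median of 61 members was -0.13, with 29 higher and 32 lower. In L1, a low-FCR bird, the median of 652 Z-linked genes was -0.51 against the other birds (log2 scale). The part of this in the Z-linked median was not tested.

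Of the receptors under the filter, IL17RD had 50 counts in the low-FCR and 33 in the high-FCR birds, a ratio of 1.54 (95% Clopper-Pearson interval 0.976 to 2.48). IL1RAPL2, a neuronal receptor-like protein in mammals, had 18, 10 and 15 against 9, 9 and 7 counts, with no overlap of the groups and a ratio of 1.75 (interval 1.05 to 3.00). Both intervals cover counting error only, and between birds edgeR without a filter gave an unadjusted p of 0.22 for IL1RAPL2 and 0.31 for IL17RD. IL4I1, an enzyme that degrades amino acids and bears its name from induction by IL4, had 17, 36 and 21 against 13, 22 and 30 counts. Its log2 FC of 0.29 (SE 0.55) was -0.06 without L2. The gene model of IL4I1 overlaps 15 other annotated genes, so its counts are uncertain.

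Signalling genes outside the symbol rule were read from lists. Of 24 tested genes of the JAK-STAT pathway, 7 had the higher and 17 the lower mean level in low-FCR birds (median log2 FC -0.16), with 1 (4.17%, against 3.24% of all genes) at an unadjusted p under 0.05. That gene, STAT4, transmits the interleukin 12 signal, and had 17.6, 62.9 and 35.8 normalised FPKM against 69.5, 59.7 and 116. L2 was within the high-FCR range, H3 was the highest, and the log2 FC was -1.08 (SE 0.45, edgeR unadjusted p = 0.042, adjusted p = 0.997), or -0.15 when H3 was counted as low-FCR. SOCS3, the feedback inhibitor induced by IL6 and IL22 signals, had 74.1 in L1 and no more than 23.5 in any other bird. The mean over the 24 JAK-STAT genes (log2 scale) was -0.42, 0.04 and 0.02 against 0.01, 0.08 and 0.28. L1 was lowest and H3 highest, and L2 and L3 were not below H1.

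Of 22 tested genes of chemokine receptor signalling, 4 had the higher and 18 the lower mean level (median -0.16), and 0 had an unadjusted p under 0.05 in edgeR and 0 in DESeq2. Their mean over genes (log2 scale) was -0.49, 0.17 and -0.008 against -0.05, 0.16 and 0.22. Only L1 lay below all high-FCR birds. The 23 tested genes from interleukin 1 and 17 receptors to NF-kB split into 10 higher and 13 lower, with a median of -0.04. TRAF2, an adaptor of that pathway, had 4.89, 7.69 and 4.77 normalised FPKM in the low-FCR birds and 11.7, 12.1 and 8.53 in the high-FCR birds. It was the 1 gene of the 23 without overlap (4.35%, against 6.36% of all genes) and the 1 at an unadjusted p under 0.05 (4.35%, against 3.24%). Its log2 FC was -0.90 (SE 0.32, edgeR unadjusted p = 0.022, adjusted p = 0.997). Among 5 tested chemokine receptors outside the rule, ACKR4, a scavenger of CCL19 and CCL21, was highest in H3 at 8.19 against 2.50 to 3.97, as its ligands were. ACKR3, a scavenger of CXCL12, was highest in L3 at 38.9. The 25 other cytokines and receptors tested split into 13 higher and 12 lower, with a median of 0.01.

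Marker lists of the cells that make or carry these proteins did not all move in the same birds. The markers were named after their values had been seen, and markers of 1 cell type can vary together. Their shares beside those of all genes are therefore a description and no independent support. Of 13 tested T cell markers, 12 had a lower mean level in low-FCR birds (median log2 FC -0.53). At an unadjusted p under 0.05 there were 4 (30.8%, against 3.24% of all genes), namely CD4, CD28, CD5 and CTLA4, none past adjustment. The summed level of the 13 markers was 446 normalised FPKM in L1, 593 in L3, 789 in L2, 650 to 702 in H2 and H1, and 1202 in H3. CD4, the helper T cell co-receptor, had 7.01, 21.2 and 11.5 against 24.9, 23.6 and 37.9. The groups did not overlap for 3 of the 13 (23.1%, against 6.36% of all genes), all lower in low-FCR birds, with CD4 among them. By summed level L1 was lowest and H3 highest in T cell markers, as in many of the members.

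The summed level of B and plasma cell markers was lowest in L1 (619) and highest in H2 (2161), the birds with the lowest and highest CXCR5. By the mean over genes on the log2 scale, L1 was again lowest, but L3 (0.72) and H2 (0.71) were level. Enterocyte markers were lowest in H3, at 1862 against 2530 to 4779. By the mean over genes (log2 scale) the birds had 0.46, 0.45 and -0.22 against 0.53, -0.29 and -0.91. H1 was thus the highest bird. Of 11 tested, 9 had the higher mean level in low-FCR birds (median log2 FC 0.27). At an unadjusted p under 0.05 there was 1 (9.09%, against 3.24% of all genes), the brush-border peptidase gene ANPEP. The 4 ileal enterocyte markers also had the higher group mean in low-FCR birds (median 1.70), with 0 at that threshold in edgeR and 1 in DESeq2. The low-FCR birds did not agree: the mean over these genes was highest in L1 (2.23 on the log2 scale) and L3 (1.11), and lowest of all birds in L2 (-1.92). The smooth muscle sum was highest in L1 (7650 against 1750 to 4969). Of 12 tested macrophage and dendritic cell markers, 4 had the higher and 8 the lower mean level in low-FCR birds. Their mean over genes was lowest in H1 (-0.43 on the log2 scale) and highest in H2 (0.36). Of 12 stromal and endothelial markers 10 had the higher and 2 the lower mean level in low-FCR birds. Their mean over genes (log2 scale) was 0.25, -0.36 and 0.54 against -0.35, 0.39 and -0.47, so the birds of the groups interleaved. Granulocyte markers summed to 46.2 in L3 and 11.6 to 22.3 in the other birds, and 1 of them, CATHL2, a granule peptide of heterophils, had no count in any bird. The part of cell composition in the differences between birds or groups was not tested.

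**Figure D5:**
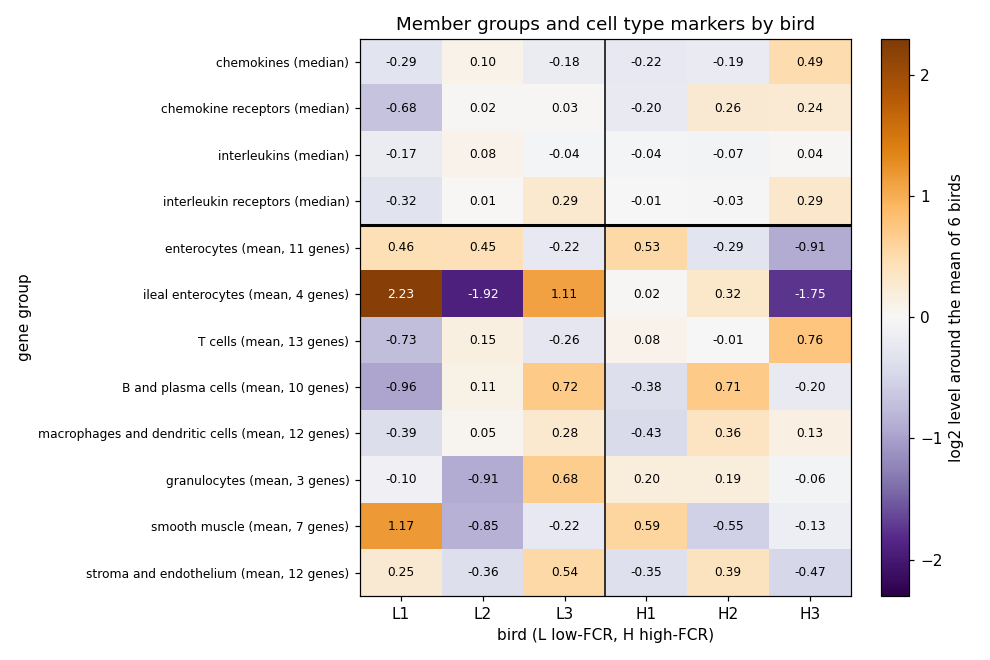
Log2 level around the mean of 6 birds for the 4 role groups of members (median over genes, above the line) and for cell type marker lists (mean over genes, below it), with the value in each cell. In H3 the chemokines (0.49) and T cell markers (0.76) are high and the enterocyte markers low (-0.91); in L1 the chemokine receptors (-0.68), T cell markers (-0.73) and B and plasma cell markers (-0.96) are low.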

How the data were processed

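Poly(A) libraries of 6 jejunum samples were compared, 3 low-FCR and 3 high-FCR. Upstream, the authors used Cutadapt 1.9.1 for trimming and HISAT2 2.0.1 for alignment to GRCg6a, and deposited whole-number counts per Ensembl gene from HTSeq 0.6.1; the strand setting and annotation release are not given in the sources used here. The FPKM deposited by the authors follow from these counts, the exonic gene size and the library total, to within 0.006. Counting per exonic kilobase uses the deposited exonic size, another value of the file.

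Counts were tested with edgeR 4.0.16 (R 4.3.3; TMM, quasi-likelihood) over all genes whose mean FPKM reached 0.5, with Benjamini-Hochberg adjustment. log2 FC is low-FCR minus high-FCR, as reported by edgeR. Its SE is the size of edgeR's unshrunk log2 coefficient over the square root of F. A count of 3 was 0.249 to 0.304 CPM. DESeq2 1.42.0, limma 3.58.1 on log2(FPKM + 0.5), other filters and size factors, the replicate number as a block, each bird left out and H3 grouped as low-FCR were alternatives. The fit without L1 and H3 was added later, with the data seen. The procedure was tested on simulated data.

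Members and lists were chosen with earlier results of these data known. In each role group the 5 most expressed members and any with an unadjusted p under 0.05 or no overlap of the groups are given bird by bird, any other member may be named, and of each pathway list genes were taken from the 4 with the smallest p. Cell type markers were named after their values had been seen. RefSeq sequences of the members were not used here. The values of 1 member are not reported here; it is left out of the figures and kept in all counts and medians.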

Additional observations from a re-analysis of the deposited data

How the results depend on the processing

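Under all 16 alternatives, 0 members passed adjustment. The count of members at an unadjusted p under 0.05, 9 in edgeR (3.24% of all genes), was 14 in DESeq2 (4.09%), 13 with no filter (3.56%), 4, 5 and 5 in limma with pseudocounts of 0.1, 0.5 and 1 (3.1%, 3.02% and 2.91%), 2 with H3 grouped as low-FCR (2.18%), 4 without L1 and H3 (1.72%), and 2 to 15 with each bird left out (2.05% to 9.91%). The median log2 FC of the members was 0.073 with H3 grouped as low-FCR and 0.069 without L1 and H3, and -0.26 to -0.017 with each bird left out. The causes were not tested.

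With the replicate number as a block the count was 5 (3.87% of all genes) and the median -0.24. Deviations of same-numbered birds correlated at 0.19, 0.19 and 0.01, and those of differently numbered birds at -0.28 to 0.11. L1, L2, H1 and H2 correlated best with their own number, and L3 and H3 did not. The labels name no pairing, and these few values do not settle whether the numbers pair the birds.

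Over the 67 tested members, 26 turned sign with H3 grouped as low-FCR, 20 without L1 and H3 and 3 to 12 with each bird left out. Among the 28 tested members covered by the naming rule, which include the 1 not reported, 9 reversed with H3 grouped as low-FCR: CCL21 (0.55), CCL19 (0.47), CCL4 (ENSGALG00000034478; 0.45), CCL1 (0.25), XCR1 (-0.32), IL15 (-0.12), IL16 (0.13), IL2RG (0.073) and IL2RB (0.064). Without L1 and H3, 8 reversed: CCL21 (0.036), CCL4 (ENSGALG00000034478; 0.28), IL15 (-0.11), IL16 (0.26), IL17D (-0.056), IL2RG (0.18), IL7R (0.069) and IL2RB (0.066). IL15 was -0.054, -0.053 and -0.053 in limma with pseudocounts of 0.1, 0.5 and 1. With each bird left out, the log2 FC spanned 0 for CCL4 (ENSGALG00000034478; -1.49 to 0.0996), XCR1 (-0.059 to 0.57), IL15 (-0.14 to 0.35), IL16 (-0.54 to 0.033), IL17D (-0.12 to 0.53), IL2RG (-0.54 to 0.012), IL22RA1 (-0.61 to 0.055) and IL4I1 (-0.058 to 0.62). The 9 members with the smallest p kept their direction under every alternative. They were chosen by p in these same birds, so a kept direction is no independent support. With H3 grouped as low-FCR, CCR4 (-0.16, SE 0.59) and CCL4 (ENSGALG00000032717; -0.16, SE 0.49) were small beside their SE.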

Other observations

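Genes of these families without a symbol that fits the rule are named here from the annotation's description, after their values had been seen. ENSGALG00000014585, described as C-C motif chemokine ligand 26, had 91.6, 315 and 109 normalised FPKM in the low-FCR birds, against 178, 328 and 592 in the high-FCR birds, again lowest in L1 and highest in H3. Its mean level was above that of any member. The interleukin 12 receptor subunit beta 1 (ENSGALG00000035825), partner of IL12RB2, had 9.93, 19.3 and 9.13 against 18.1, 14.7 and 32.7, with H3 highest as for STAT4.

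The interleukin 4 receptor (ENSGALG00000035447) had 11.5 to 18.4 in the low-FCR and 17.5 to 20.8 in the high-FCR birds. Interleukin 18 (listed as IL-18) had 4.90 in L1, with the other birds between 8.55 and 10.1. Interleukin 34 (ENSGALG00000028466), a ligand of the macrophage receptor CSF1R, had 13.7, 7.85 and 12.5 against 7.91, 8.15 and 9.27. Interleukin 17F (ENSGALG00000016677), a relative of IL17A, had 11, 2 and 12 counts against 4, 7 and 2. In IL17F and IL34, L1 and L3 were the highest birds and L2 lay within or below the high-FCR range, the arrangement also seen in IL8L1, IL7 and IL22RA2.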
